A study of Mus musculus with 847 samples.

Results

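Omp, S100a5, Cdhr1, Doc2g, Nmb, Sp8, Shisa8 and Ms4a15 are 8 genes whose messenger RNA was at its highest level in the olfactory bulb among the dissected regions of the mouse brain. They were chosen by name from the 21076 genes of the deposited count table. The choice was made on measured values, their level in the bulb against the other 14 dissections, so those levels are given as a description with no test. The table holds unstranded poly(A) libraries, 58 of the bulb and 789 of other regions, made by Smart-Seq2 and Nextera XT from 15 dissected brain regions of 59 C57BL/6JN mice, 25 females and 34 males, with no genetic change or treatment named in the labels. The mice were 3, 12, 15, 18, 21, 26 or 28 months old, and at 26 and 28 months only males were sampled. Of the 58 bulb libraries, 10 came from each of the ages 3, 12, 15, 18 and 21 months (5 females and 5 males), 5 from 26 months and 3 from 28 months. Mice 1 to 15 were those of 12 and 26 months, and mice 57 to 59 those of 28 months. At 3, 15, 18 and 21 months every male was among mice 16 to 36 and every female among mice 37 to 56.

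The olfactory bulb is the first relay of smell. Axons of sensory neurons, whose cell bodies lie in the nose, end in its glomeruli on the dendrites of mitral and tufted cells, which project to the olfactory cortex, while inhibitory granule and periglomerular cells shape that output. The inhibitory cells are renewed through life by neuroblasts that migrate from the subventricular zone. Among the 8 genes, Omp (olfactory marker protein) and S100a5 (a calcium-binding protein) are made by mature sensory neurons, Cdhr1 (a cadherin-related protein), Doc2g (a protein with C2 domains) and Nmb (the peptide neuromedin B) are known from mitral and tufted cells, Sp8 is a transcription factor of bulb interneurons, Shisa8 is an auxiliary subunit of AMPA receptors, and Ms4a15 is a membrane protein of the MS4A family.

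In GRCm38 with the GENCODE vM21 models, Omp lies at chr7:98143359-98145502 on the minus strand, inside Capn5 on the same strand but with 0 exon bases shared. S100a5 lies at chr3:90608523-90611780, Cdhr1 at chr14:37077857-37098347, Sp8 at chr12:118846329-118852576, Shisa8 at chr15:82206168-82212815 and Ms4a15 at chr19:10978307-10993250. Nmb at chr7:80902227-80905076 shares 163 exon bases with Sec11a on its own strand, and Doc2g at chr19:4003313-4007005 shares 1926 with Gm49405, a gene model with no values in the table. Reads from such shared bases cannot be assigned to 1 gene with certainty. The promoters of S100a5 and Ms4a15 are shown because, of the genes with a median of 0 in every other region, these 2 had the highest levels in the bulb. Each sequence is the 250 bases before the RefSeq start on the gene's own strand (GRCm38.p6, S100a5 at chr3:90608272-90608521 on the plus strand, Ms4a15 at chr19:10993251-10993500 on the minus strand).
S100a5: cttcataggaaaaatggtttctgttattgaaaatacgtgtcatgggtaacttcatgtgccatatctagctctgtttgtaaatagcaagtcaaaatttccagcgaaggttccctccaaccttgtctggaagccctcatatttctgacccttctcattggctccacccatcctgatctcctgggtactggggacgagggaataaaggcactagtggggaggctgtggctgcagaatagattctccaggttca
Ms4a15: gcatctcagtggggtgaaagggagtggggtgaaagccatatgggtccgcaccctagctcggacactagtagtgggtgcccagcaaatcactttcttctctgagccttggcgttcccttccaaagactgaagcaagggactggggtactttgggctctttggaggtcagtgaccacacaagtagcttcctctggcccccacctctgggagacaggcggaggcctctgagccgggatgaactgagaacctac
Both are printed in lower case throughout because neither motif searched was found in them. The motifs were the O/E palindrome bound by Ebf factors of sensory neurons, TCCCNNGGGA, and the T-box site AGGTGTGA, bound by factors such as Tbx21 of mitral and tufted cells, on both strands of windows from 250 bases before to 50 after the start. Promoters were given for 7 of the 8 genes, in 9 entries, and 0 of the 9 entries held either motif. Of all 32851 promoters, 297 (0.904%) held the first and 419 (1.28%) the second.

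Library totals ran from 481444 to 26756735 counts over the series (median 6716032) and from 611669 to 17206858 over the 58 bulb libraries (median 5952683). Levels are CPM, counts scaled to a library total of 1000000. Each library of a region came from a different mouse, so the p-values measure the spread between mice. All adjusted p-values of the fits are from edgeR's quasi-likelihood test with Benjamini-Hochberg adjustment over all genes tested, called at 0.05. In bulk RNA fewer cells of a type and less RNA per cell cannot be told apart. The bulb library of mouse 49, a female of 3 months, stands apart from the other bulb libraries in genes of the nasal epithelium and of sensory neurons, and results that rest on it are given with and without it.

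Across regions, S100a5 and Ms4a15 had a median of 0 in all 14 dissections outside the bulb. S100a5 ran from 105 to 478 CPM over the bulb libraries with a median of 188, and its highest value in the 789 other libraries was 7.31 CPM. Ms4a15 ran from 115 to 152 CPM with a median of 132, and the lowest bulb library was 44.6 times the highest library elsewhere. S100a5 had reads in 144 of the 789 libraries, Ms4a15 in 145, and both in 77. When 11901 genes were ranked by the ratio of the median in the bulb to the next highest regional median, 3 genes had a median of 0 in all other regions and so no finite ratio. They were placed first, in the order of their bulb level: S100a5, Ms4a15 and Hephl1. Tbx21 followed at rank 4, with Omp at rank 5, Cdhr1 at 9, Doc2g at 12, Nmb at 16, Sp8 at 67 and Shisa8 at 144.

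The other 6 genes were also read elsewhere, each with its own order of regions. Omp had a bulb median of 177 CPM (107.1 to 799.2) and was next highest in the hypothalamus at 1.07 CPM (0 to 20.0), the pons at 0.776 and the medulla at 0.494, with ranges that overlap. Its host gene Capn5 had medians of 60.2 CPM in the hypothalamus and 66.8 CPM in the choroid plexus, where the Omp median was 0.143 CPM. Cdhr1 had a bulb median of 427 CPM (341 to 474), followed by the posterior hippocampus at 11.2 CPM (3.67 to 19.8), the anterior hippocampus at 9.64 and the caudate putamen at 7.25, again overlapping. Doc2g had a bulb median of 470 CPM (387 to 533) and was next highest in the subventricular zone at 15.2 CPM (3.06 to 32.5) and the cerebellum at 6.07. Nmb had a bulb median of 74.0 CPM (57.4 to 90.1) and of at most 3.88 CPM in any other region (anterior hippocampus, 1.34 to 7.18).

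Sp8 and Shisa8 had the narrowest gap to another region. Sp8 had a bulb median of 125 CPM (100 to 151) and of 25.9 CPM in the subventricular zone (7.91 to 45.7), the source of bulb neuroblasts, and the next region, the hypothalamus, was at 2.66 CPM (0 to 5.97). No hypothalamus library reached the lowest subventricular zone library. Shisa8 had a bulb median of 158 CPM (123 to 202), followed by the cerebellum at 60.5 CPM (43.3 to 93.2) and the pons at 17.3 CPM (3.51 to 36.0). These 3 ranges did not overlap, and the lowest bulb library was 1.32 times the highest cerebellum library. Per kilobase of exon the order in the bulb was S100a5 with a median level of 435 CPM per kilobase, Doc2g 155, Cdhr1 98.7, Nmb 93.3, Omp 82.6, Ms4a15 74.5, Shisa8 57.1 and Sp8 27.4.

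**Figure D1:**
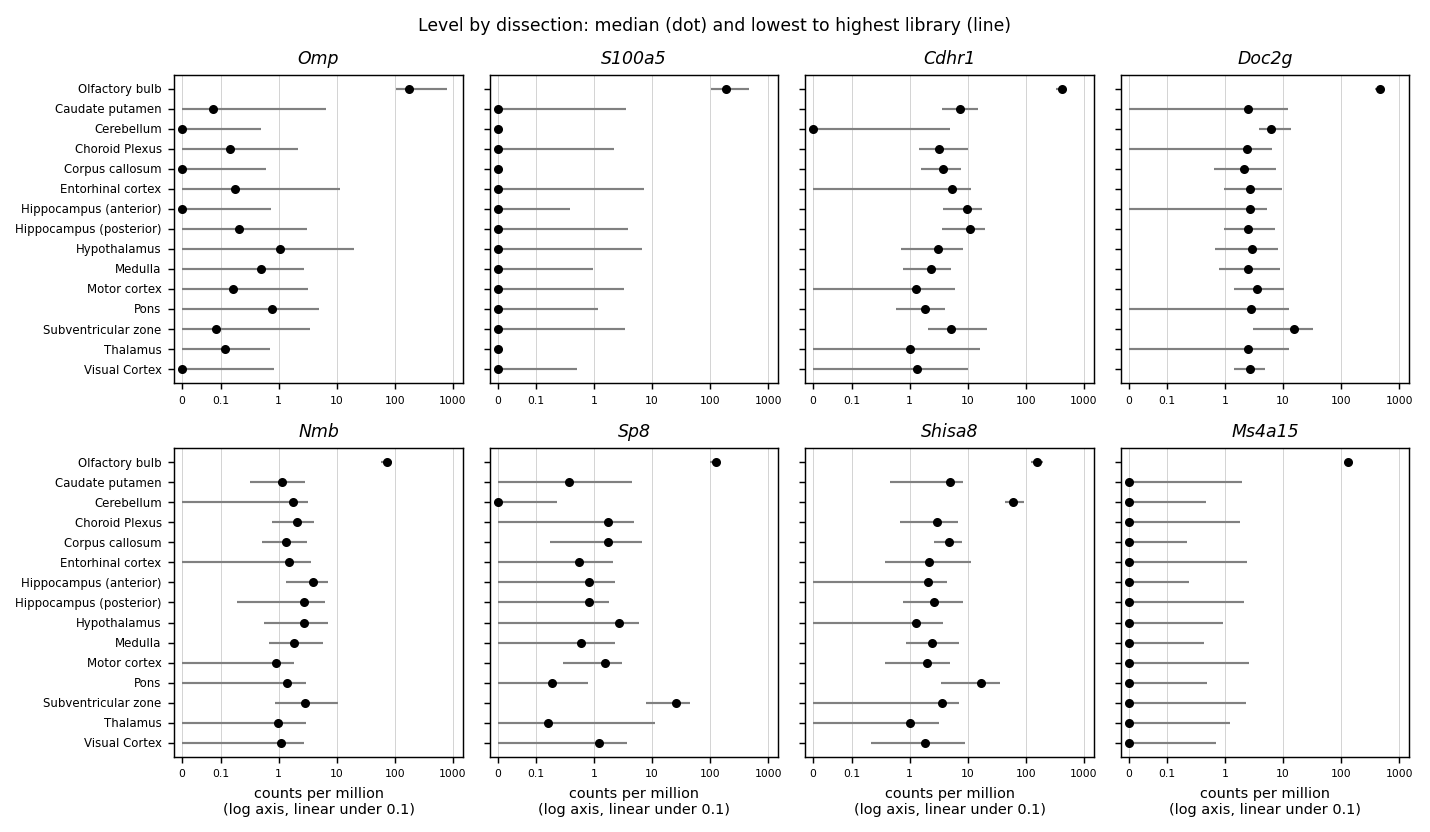
Level of the 8 genes in 15 dissections, in CPM on an axis that is logarithmic above 0.1 and linear below it; dots are medians over libraries and lines run from the lowest to the highest library. The bulb lies to the right of every other region for all 8 genes, with the smallest gap for Shisa8, whose cerebellum median is 60.5.

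Over age in the bulb, 3 of the 8 genes changed when age in months was fitted with sex over all 58 libraries: S100a5 fell, and Sp8 and Shisa8 rose. Of all 14315 genes tested 15.6% were called, 7.31% rising and 8.3% falling, which is the background for 2 rising and 1 falling of 8. The median slope of the 8 genes was 0.0002 log2 units per month, against -0.0003 over all genes tested.

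S100a5 had 117.6, 218.7 and 478.2 CPM as its lowest, median and highest library at 3 months. Its medians were 200 CPM at 12 months, 216 at 15, 190 at 18, 153 at 21 and 182.5 at 26, and the 3 libraries of 28 months held 105.4, 140.4 and 146.7 CPM. Every library of 21 and 28 months lies below the median of 3 months. The range of 3 months overlaps those of all later ages, whereas the 5 libraries of 26 months (160.8 to 240.8 CPM) all lie above the 3 of 28 months. The slope was -0.0197 ± 0.0057 (SE) log2 units per month, a modelled fall of 28.9% over 25 months (adjusted p = 0.0125). Without mouse 49 the slope was -0.0133 and was not called (adjusted p = 0.0719), whereas it was called without any 1 of the other 57 libraries. Against 3 months, S100a5 was lower at 21 months (log2 difference -0.59, adjusted p = 0.0021) and at 28 months (-0.76, adjusted p = 0.0413), and both calls held without mouse 49.

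Omp varied most of the 8 between bulb libraries, with a coefficient of variation of 49.7%, or 27.7% without mouse 49. Its lowest, median and highest libraries held 114, 226.9 and 799.2 CPM at 3 months and 109, 138.7 and 256.7 CPM at 21 months, and the 3 of 28 months held 107.7, 157.6 and 163.4 CPM. Apart from mouse 49 the ranges of the ages largely coincide. The slope was -0.0222 ± 0.0086 (SE) log2 units per month and was not called (adjusted p = 0.0673). Without mouse 49 it was -0.00755 (adjusted p = 0.517), and without any 1 of 6 other libraries (mice 11, 12, 14, 17, 25 and 37) it was called, with a lowest adjusted p of 0.0397. At 21 months Omp was lower than at 3 months (log2 difference -0.79, adjusted p = 0.00874), a call that was lost without mouse 49 (-0.41, adjusted p = 0.108).

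**Figure D2:**
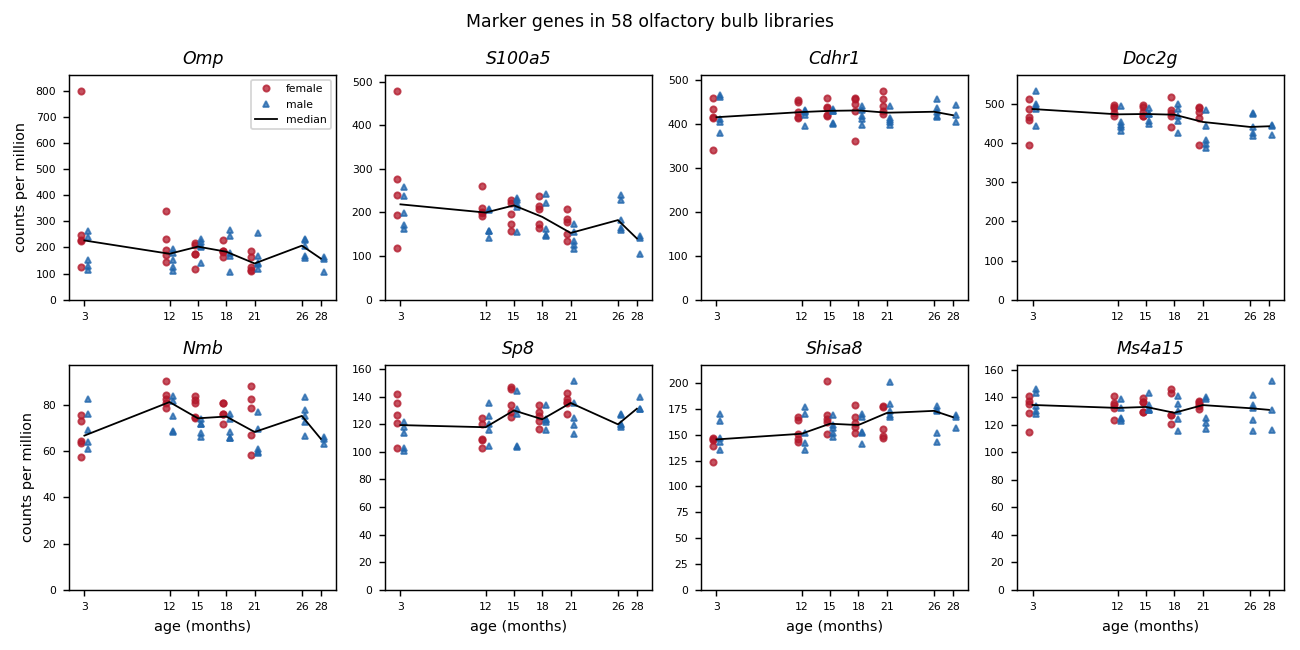
Level of the 8 genes in each of the 58 bulb libraries by age in months, in CPM, with circles for females, triangles for males and a line through the medians. S100a5 runs from a median of 218.7 at 3 months to 140.4 at 28 months, Shisa8 from 145.6 to 167.1, and 1 female library of 3 months (mouse 49) is highest for Omp and S100a5.

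Genes of the nasal epithelium moved with Omp and S100a5. The list of 8 support and basal cell genes of that epithelium (Cyp2g1, Cyp2f2, Cyp1a2, Cyp2a5, Sec14l3, Ugt2a1, Krt5 and Krt18) summed to 3345 CPM in the bulb library of mouse 49, against 0.452 to 141 CPM in the other 9 libraries of 3 months, where Krt5 was at 0. The 14 other sensory neuron genes summed to 2316 CPM there, against 363 to 518 CPM. Mouse 49 also had the lowest Cdhr1 of all bulb libraries, 341 CPM. The second highest sum was 646 CPM in mouse 1, a female of 12 months, with 338.5 CPM of Omp and 260.5 CPM of S100a5. Over the 58 libraries the summed level correlated with Omp (Pearson's r = 0.665, Spearman's rho = 0.537, permutation p = 1e-05, the smallest that 100000 resamples can give, adjusted over 8 genes 8e-05) and with S100a5 (r = 0.513, rho = 0.389, permutation tests adjusted to 0.00016 for r and 0.0115 for rho). Without mice 1 and 49, r was 0.508 and 0.335. The other 6 genes had r between -0.207 and 0.000166 and adjusted p of 0.316 or more by permutation test.

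With the summed nasal epithelium genes as a covariate, a setting chosen after seeing the data, the S100a5 slope was -0.0158 log2 units per month and still called (adjusted p = 0.025). Without the libraries of mice 49 and 1 it was -0.0128 and not called (adjusted p = 0.0782). Sp8 and Shisa8 were called under both settings. The part of nasal tissue in the course of S100a5 and Omp was not tested further.

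**Figure D3:**
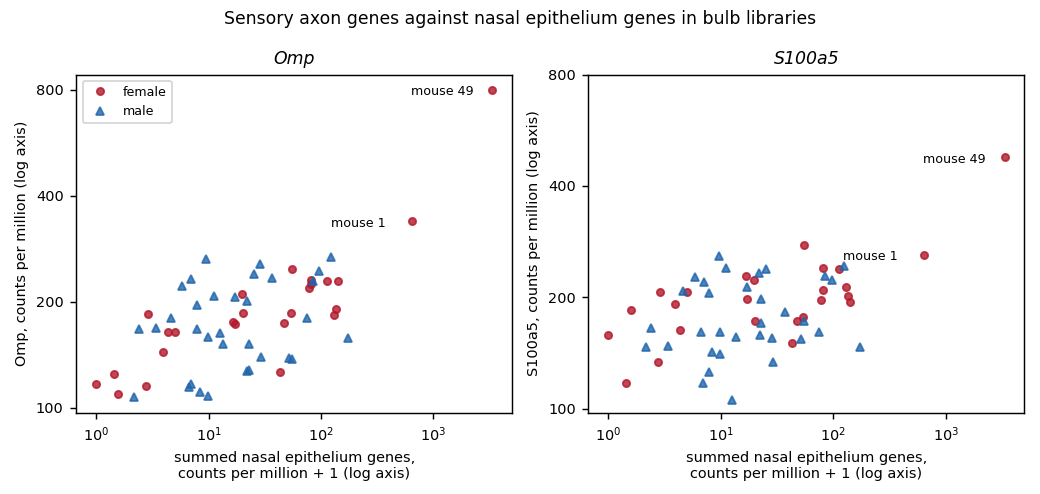
Omp and S100a5 (CPM, log axis) against the summed nasal epithelium genes plus 1 (CPM, log axis) in the 58 bulb libraries, with circles for females and triangles for males. Mouse 49, at a sum of 3345, and mouse 1, at 646, lie farthest to the right, and both genes are higher at higher sums.

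The 3 projection neuron genes and Ms4a15 gave no slope past the threshold. Cdhr1 had medians between 415 CPM at 3 months and 430 CPM at 18 months, with a coefficient of variation of 5.83% over all 58 libraries and a slope of 0.0019 log2 units per month (adjusted p = 0.447). Doc2g had medians of 487 CPM at 3 months and 443 CPM at 28 months, and its slope was -0.004 (adjusted p = 0.0939). Without mouse 49 the Doc2g slope was -0.0052 and passed (adjusted p = 0.0123), and in males alone it was -0.00647 and passed (adjusted p = 0.0217). Nmb had medians from 65.2 CPM at 28 months to 81.1 CPM at 12 months, and was higher at 12 than at 3 months (log2 difference 0.21, adjusted p = 0.0127) but had no called slope (0.0013, adjusted p = 0.822). Between 12 and 3 months, age and mouse number cannot be told apart. Ms4a15 had medians between 129 and 135 CPM at all ages and a slope of -0.0009 (adjusted p = 0.792).

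Sp8 and Shisa8 rose by small amounts. Sp8 had 100, 119.3 and 142 CPM as its lowest, median and highest library at 3 months and 130.8, 131.2 and 139.5 CPM at 28 months, so that the ranges overlap. Its slope of 0.0078 ± 0.0024 (SE) log2 units per month is a modelled rise of 14.5% over 25 months (adjusted p = 0.0189). Shisa8 had 123, 145.6 and 171 CPM at 3 months and 156, 167.1 and 169 CPM at 28 months, also overlapping. Its slope of 0.0087 ± 0.0022 (SE) is a modelled rise of 16.3% (adjusted p = 0.00364). Both were called with any 1 of the 58 libraries left out. In males alone, 33 libraries, neither was called (Sp8 adjusted p = 0.0717, Shisa8 0.127), nor was S100a5 (0.198), and Omp had a slope of 0.000214.

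Of the 48 pairs of a gene and a later age set against 3 months, 6 were called. These contrasts share the 3-month libraries. The mice of 12, 26 and 28 months have other ranges of mouse number than those of 3 months, so there age and mouse number cannot be told apart. At 12 months Nmb alone passed (5.12% of all genes called), at 15, 18 and 26 months 0 of 8 passed (4.87%, 6.7% and 6.1% of all genes), at 21 months 4 of 8 passed (11.6% of all genes) and at 28 months S100a5 alone passed (3.3%). At an unadjusted p under 0.05, edgeR gave 3 of 8 genes at 15 months, 3 at 18 and 2 at 26. Of all 14315 genes it gave 2575, 3073 and 2903 at these ages. DESeq2 also called 6 of the 48 pairs. At 21 months S100a5 and Omp were lower, and Sp8 (log2 difference 0.19, adjusted p = 0.0225) and Shisa8 (0.23, adjusted p = 0.00314) were higher. Without mouse 49, Sp8 at 21 months was lost (0.155, adjusted p = 0.0728) and Doc2g at 21 months was called lower (-0.13, adjusted p = 0.022).

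Other genes of the same cell types were read in the same fit, by lists fixed with earlier results of these data known. In that fit 7.31% of all genes tested rose and 8.3% fell. Without the libraries of mice 49 and 1, 997 of 14214 genes rose and 956 fell. Of 14 further sensory neuron genes 8 fell and 0 rose, with a median slope of -0.0546 log2 units per month, among them Gfy and Cnga4. Cnga4, a subunit of the olfactory transduction channel, had 6.51 ± 15.6 CPM in the 10 libraries of 3 months and 1.14 ± 1.30 CPM in the 3 of 28 months (mean ± SD). Without mice 49 and 1 the count was 1 of 14 and the median slope 0.0054. The 8 nasal epithelium genes behaved alike, with 7 of 8 falling in all libraries and 0 of 7 called without those mice. Among 10 mitral and tufted cell genes tested 2 fell, Ebf3 and Slc17a6 (the vesicular glutamate transporter VGLUT2, -0.0152, adjusted p = 0.00318), and 1 fell without those mice.

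Of 20 interneuron genes 4 rose and 0 fell, also without mice 49 and 1, where 7.31% of all genes rose and 8.3% fell in all libraries. Gad1, a GABA-synthesising enzyme, had 1870 ± 175 CPM in the libraries of 3 months and 2316 ± 52.5 CPM in those of 28 months (mean ± SD), a slope of 0.0142 log2 units per month (adjusted p = 4.93e-09). Gad2 had a slope of 0.0104, the peptide gene Vip 0.0159 and Tpbg 0.0103. Of 7 genes of neuroblasts and dividing cells 4 fell and 0 rose, which was also the count without those mice. Prokr2, a receptor that guides migrating neuroblasts, had 20.8 ± 3.46 CPM in the libraries of 3 months and 3.62 ± 2.52 CPM in those of 28 months (mean ± SD), a slope of -0.1142 (adjusted p = 1.79e-23), and Igfbpl1, Cd24a and Sox11 had slopes of -0.0619, -0.0336 and -0.0315.

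Among the glial lists, 1 of 6 ensheathing glia genes tested rose (Ngfr) and 2 fell (Prss56 and Frzb), 2 of 5 astrocyte genes fell (Slc1a3 and Aqp4), and 1 of 5 microglia genes rose (C1qa). These lists are too short to set against the 7.31% of all genes that rose and the 8.3% that fell. None of the genes tested from the lists for cortical projection neurons (7), striatal projection neurons (6), oligodendrocytes (5), endothelium (3), choroid plexus (2) and blood (3) was called.

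Between the sexes at 3 to 21 months, 1 of the 8 genes differed in the bulb, where 1.61% of all genes were called. Nmb ran from 57.4 to 90.1 CPM with a median of 78.5 in 25 females and from 59.2 to 83.7 CPM with a median of 69.0 in 25 males, so that the groups overlap over nearly their whole range. The means were 76.2 ± 8.58 and 70.2 ± 6.95 CPM (SD), and the log2 difference, male minus female, was -0.13 (adjusted p = 0.0411). The call was lost with depth covariates (adjusted p = 0.115), in mice 16 to 56 alone (0.146) and when any of 20 of the 50 libraries was left out. In the test of female against male slopes 0 of 8 genes passed, against 0.279% of all genes. At an unadjusted p under 0.05 edgeR gave 5 of the 8 genes, and 1173 of all 13991 genes. DESeq2 called 0 of the 8 after adjustment. For Omp the female minus male slope was -0.0584 log2 units per month (adjusted p = 0.278). Without mouse 49 it was -0.0220 (adjusted p = 0.954), and 1 of the 8 genes had an unadjusted p under 0.05.

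How the 8 genes varied together across the 58 bulb libraries was measured on log2 CPM over 28 pairs, of which 12 had an adjusted permutation p under 0.05. Omp and S100a5 were closest, with r = 0.804 and rho = 0.781 (permutation p = 1e-05, adjusted 0.000187) and r = 0.714 without mice 1 and 49. Doc2g correlated with Ms4a15 (r = 0.529, rho = 0.519, adjusted permutation p = 0.000187) and with Nmb (r = 0.516, rho = 0.493), and Cdhr1 with Ms4a15 (r = 0.507, rho = 0.426). The r values of these 3 pairs without the 2 libraries farthest from the median were 0.544, 0.427 and 0.398. Omp and Sp8 were inversely related (r = -0.405, rho = -0.386, adjusted permutation p = 0.00544), with r = -0.264 without mice 1 and 49.

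The genes most like 7 of the members were taken from 11944 genes by Pearson's r over the 58 bulb libraries. For Omp they were Stoml3 (r = 0.938), Adipor1 (0.874) and Hist2h2be (0.845), and for S100a5 they were Gng13 (0.796), BC049352 (0.795) and Acbd7 (0.793). The closest gene to Cdhr1 was Raver2 (0.714), to Doc2g Ncan (0.659), to Nmb the thyrotropin-releasing hormone gene Trh (0.662), to Sp8 Ado (0.720) and to Shisa8 Fam20c (0.717).

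Outside the bulb, traces of the set were counted in libraries where at least 6 of the 8 genes reached 1% of their bulb median. These were 21 of 789 libraries from 18 mice, 11 female and 10 male libraries: 8 of caudate putamen, 5 of motor cortex, 3 of hypothalamus, 2 of choroid plexus and 1 each of entorhinal cortex, posterior hippocampus and subventricular zone. Genes with ordinary levels in a region count towards this mark: the regional median itself was at 1% of the bulb median or more for 5 of the 8 genes in the subventricular zone, for 2 in the hypothalamus (Sp8 and Nmb) and for 3 in each of the other regions named, for example Cdhr1, Shisa8 and Nmb in the caudate putamen and Sp8, Shisa8 and Nmb in motor cortex. Omp, S100a5 and Ms4a15, whose medians stay under it in all 14 regions, reached it together in 7 of the 21 libraries, 2 of them of caudate putamen, 2 of motor cortex and 1 each of entorhinal cortex, posterior hippocampus and subventricular zone. The entorhinal and the hippocampal library came from the same mouse, 38, a female of 15 months, and held 11.45 and 3.13 CPM of Omp and 7.31 and 3.79 CPM of S100a5. The subventricular zone library was that of mouse 8, a male of 26 months, with 3.41 CPM of S100a5, against at most 0.648 CPM in the others of that region. All 5 motor cortex libraries were of females of mice 37 to 56.

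In motor cortex the traces divided the libraries by sex and mouse number. S100a5 was at 0 in all 21 males of mice 16 to 36, while the 20 females of mice 37 to 56 ran from 0 to 3.23 CPM with a median of 0.889. Ms4a15 ran from 0 to 2.58 CPM with a median of 0.494 in those females, and 1 of the 21 males had reads (0.284 CPM). Omp ran from 0 to 3.23 CPM (median 1.07) in the females and from 0 to 0.869 CPM (median 0) in the males, and Cdhr1 from 1.30 to 6.12 (median 2.62) and from 0 to 2.00 (median 0.734). The 10 motor cortex libraries highest in Omp were all from these females. At 12 months, where both sexes come from mice 1 to 15, the 5 female libraries held 1 read of S100a5 and 0 of Ms4a15, and the 5 male libraries held 0 and 1. The high values are thus those of females of mice 37 to 56, a few of which lie as low as the other libraries.

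Pooled over the 20 females, 174 reads of S100a5 gave 0.965 CPM and 114 of Ms4a15 gave 0.632 CPM (exact Poisson 95% interval 0.521 to 0.759, counting error only), against 0 and 2 reads in the 21 males. In those females 1.53 reads of S100a5 and 1.85 of Omp were counted for each read of Ms4a15, and in the bulb libraries 1.505 and 1.525. Tbx21, a transcription factor of mitral and tufted cells, had 29 reads in those females and 14 in the males, and Eomes, another, had 67 and 2. Stoml3, the gene most like Omp in the bulb, had 73 and 5 reads, the sensory neuron gene Gfy 43 and 20, and the nasal epithelium gene Ugt2a1 36 and 11. Both of these lists were mixed. Ebf2 of the sensory neuron list had 98 and 49 reads, but Rtp1 had 22 and 29, Cngb1 11 and 17 and Cnga2 23 and 24. Cyp2f2 of the nasal epithelium list had 103 and 91. The females' libraries held 180350576 counts together and the males' 146705210. Summed, nasal epithelium genes had 0.604 CPM in the females (0.103 to 7.45) and 0.724 CPM in the males (0 to 2.27). Krt5 was at 0 in the females and Cyp2g1 and Cyp1a2 at 0 in the males. The 14 further sensory neuron genes had 387 and 367 CPM, and ensheathing glia genes 269 and 275 CPM. Genes read in motor cortex of both sexes made up most of the sensory neuron sums. They were Gnal (medians 182 and 172 CPM), Lhx2 (62.6 and 63.34), Adcy3 (58.06 and 54.21), Gng13 (42.77 and 40.71) and Ric8b (36.15 and 36.64). Traces near 1 CPM could hardly move sums of this size, so these 2 lists cannot show them. What put these reads into the libraries was not tested.

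**Figure D4:**
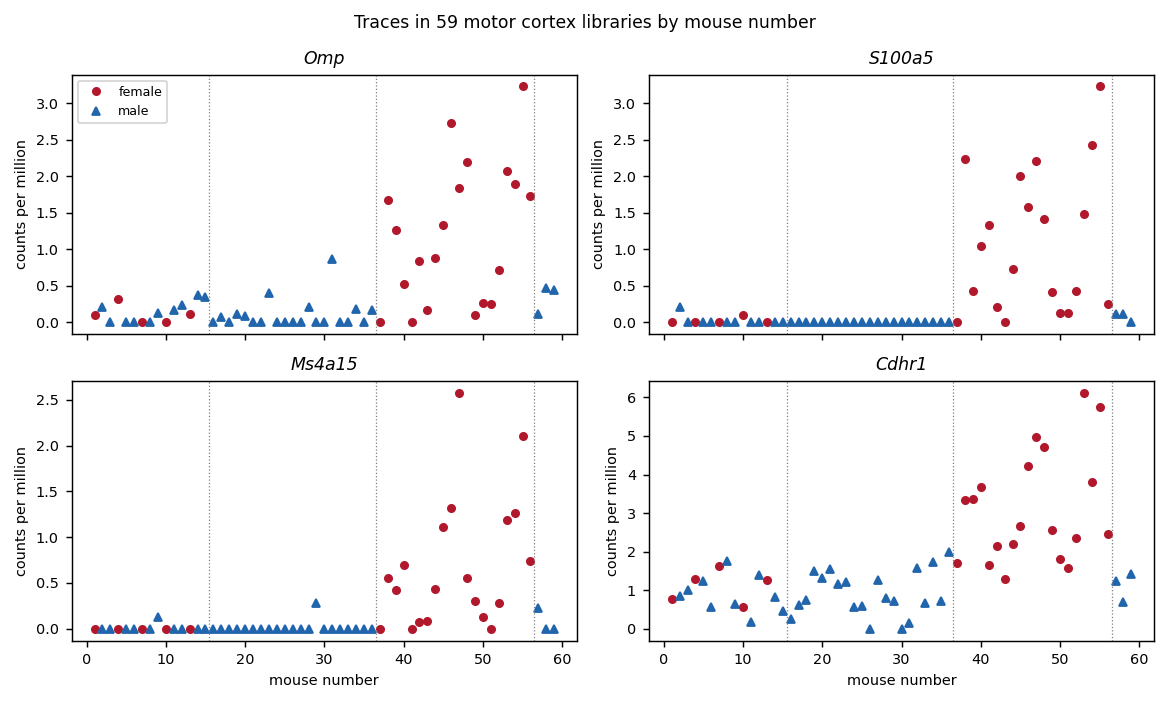
Omp, S100a5, Ms4a15 and Cdhr1 in the 59 motor cortex libraries by mouse number, in CPM, with circles for females and triangles for males; dotted lines part mice 1 to 15, 16 to 36, 37 to 56 and 57 to 59. S100a5 lies at 0 in all males of mice 16 to 36 and reaches 3.23 in the females of mice 37 to 56.

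A comparison of the sexes in motor cortex at 3 to 21 months was added because these values had been seen, with 25 females and 26 males, so its p-values restate that pattern and are no independent support for it. Of 7 genes tested 3 passed the threshold, all lower in males: S100a5, Omp and Cdhr1. Over all genes 3.54% were called. S100a5 and Omp were tested only because of the females, in whom they are high, so of the 3 only Cdhr1 can be set against that share. S100a5 had 175 reads in females and 0 in all 26 males, at least 46.8-fold higher in females when the males are set to a floor of 3 reads over the group. It passed the filter on low counts through the females alone, and no p-value is given for it. Omp was 8.66-fold higher in pooled female reads (fitted log2 difference, male minus female, -2.94 ± 0.47 (SE)) and above every male in 11 of 25 females. With at most 0.869 CPM in any male and 15 of 26 males at 0, Omp also passed that filter through the females alone. No p-value is given for it either. Cdhr1 was 2.77-fold higher in pooled reads (adjusted p = 2.24e-06) and above every male in 15 of 25 females. Nmb (-0.51, adjusted p = 0.0554), Sp8 (-0.41, 0.0543), Doc2g (-0.38, 0.116) and Shisa8 (-0.34, 0.219) were not called, and Ms4a15 did not pass the filter on low counts. In mice 16 to 56 alone 6 of the genes were called, in the same libraries in which the pattern had been seen. The 3.54% is not the share for that subset, and S100a5 and Omp are high there in the females alone. This count is therefore no further support. Among the 10 mice of 12 months 0 were called. Very few of all genes were called at that age either, so this 0 says little about these genes. Apart from 12 months, sex and mouse number cannot be told apart.

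Within the 20 females the traces varied together: 24 of 28 pairs had an adjusted permutation p under 0.05. Cdhr1 and Ms4a15 had r = 0.868 and rho = 0.877 (r = 0.852 without the 2 libraries farthest from the median), Cdhr1 and Doc2g 0.867 and 0.887 (0.893), and Omp and Ms4a15 0.844 and 0.860 (0.789). All 3 pairs had adjusted permutation p of 0.000112 or less. The 4 pairs that did not pass all include Shisa8. Over the other 39 mice 0 of 28 pairs passed. There the 21 males of mice 16 to 36 held 0 reads of S100a5 and 2 of Ms4a15, and each other group at most 2 of either. Pairs with these genes could hardly pass at such counts, so this 0 is no contrast to the count in the females.

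**Figure D5:**
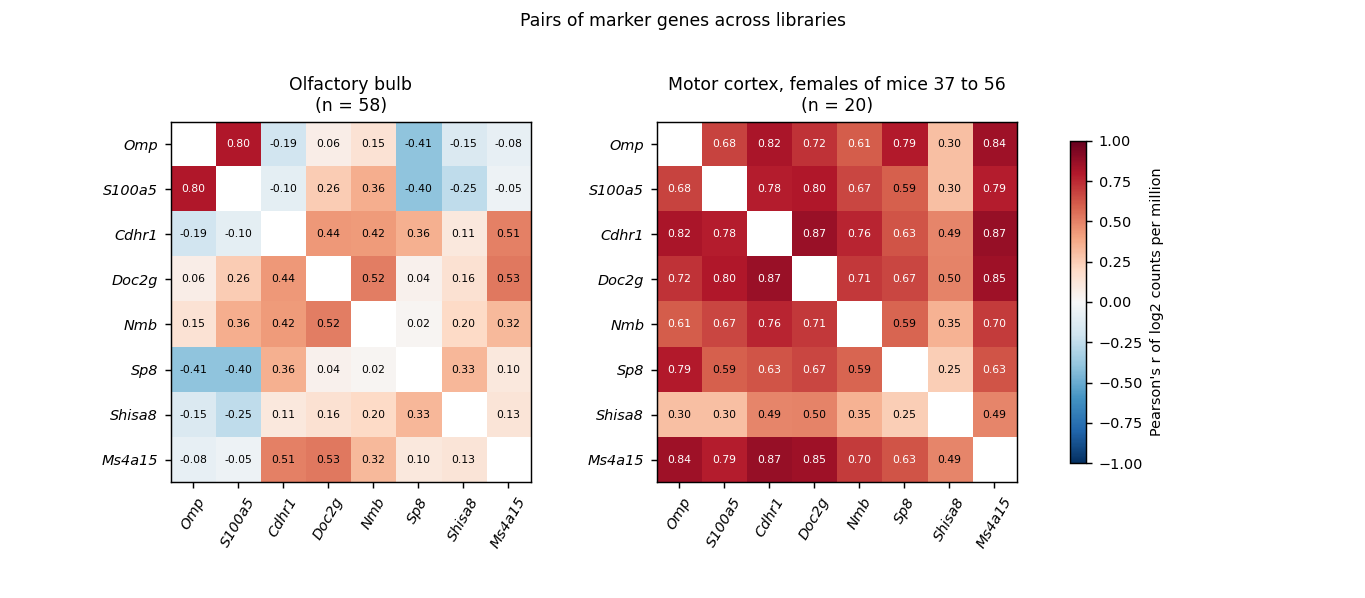
Pearson's r of log2 CPM for each pair of the 8 genes over the 58 bulb libraries (left) and over the motor cortex libraries of the 20 females of mice 37 to 56 (right), on a colour scale from -1 to 1. In the bulb Omp and S100a5 stand out as a pair at 0.80, while in those motor cortex libraries all pairs without Shisa8 have an r between 0.59 and 0.87.

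With age, 0 of the 8 genes changed in motor cortex, where 16.6% of all genes were called. DESeq2 also called 0. At an unadjusted p under 0.05 edgeR gave 2 of the 8, and 4270 of all 14068 genes. The 2 were Omp (slope 0.0636 log2 units per month) and Sp8 (0.0199, adjusted p = 0.119). Without the library of mouse 53 Omp passed (adjusted p = 0.0175). In the joint fit of bulb and motor cortex, 0 of 8 genes had slopes that differed between the regions, against 6.7% of all genes, or 986 genes. At an unadjusted p under 0.05 there were 0 of the 8, and 3074 of all 14727 genes. With each mouse as a replicate block, 893 of 14727 genes were called, Omp among them, with a bulb minus motor cortex slope of -0.113 log2 units per month. Omp was at 0 in 21 of the 59 motor cortex libraries and is high in the bulb alone, so no p-value is given for it. The block setting was not run without mouse 49.

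Over the 14 regions outside the bulb, 6 of 78 pairs of a gene and a region tested for age were called, against 10.2% of all such pairs. Cdhr1 fell (slope -0.0398, adjusted p = 0.00386) and Shisa8 rose (0.0285, adjusted p = 0.0404) in the choroid plexus, Shisa8 fell in the medulla (-0.0315, adjusted p = 0.037), and Doc2g fell in the pons (-0.0389, adjusted p = 0.0215). In males alone none of these 4 was called (adjusted p = 0.119, 0.305, 0.0986 and 0.212 in that order), and in mice 16 to 56 alone both Shisa8 calls were lost (0.121 in the choroid plexus, 0.305 in the medulla). In the hypothalamus Omp (0.111, adjusted p = 0.0196) and S100a5 (0.16) were called as rising, and both calls rest on few libraries. S100a5 was at 0 in 33 of the 55 libraries of this region. It passed the filter on low counts through the few libraries in which it is high, so no p-value is given for it. Mouse 58, a male of 28 months, held 15.8 CPM of Omp there, mouse 32, a male of 21 months, 20.0 CPM, and mouse 47, a female of 18 months, 10.3 CPM, whereas the other 52 libraries had a median of 0.964 and a highest value of 5.03 CPM. Without mouse 58 neither gene was called (Omp adjusted p = 0.119), and without mouse 47 S100a5 was not. The nasal epithelium list summed to 53.0, 79.8 and 26.6 CPM in those 3 libraries and to a median of 9.38 (highest 40.1) in the others. Ms4a15 was at 0 in the library of mouse 32, at 0.4686 CPM (3 reads) in that of mouse 47 and at 0.9295 CPM (4 reads) in that of mouse 58. The part of nasal tissue in these slopes was not tested.

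Between bulb and subventricular zone, the difference of the S100a5 slopes, bulb minus subventricular zone, was -0.269 log2 units per month. S100a5 was the only 1 of the 8 genes past the threshold, where 3.7% of all genes were called. It passed the filter on low counts through the bulb alone, with reads in 4 of the 55 subventricular zone libraries, so no p-value is given for it. With the replicate block of mice the difference was -0.263. The difference rests on the subventricular zone library of mouse 8: without it the value was -0.0028. In the 13 regions other than bulb and motor cortex, where the sexes were compared after the motor cortex values were seen, 1 of 68 pairs was called, against 2.73% of all pairs. It was Cdhr1 in the corpus callosum, with a log2 difference, male minus female, of -0.55 (adjusted p = 0.0427), and in mice 16 to 56 alone it was not called. At an unadjusted p under 0.05, a mark at which no share of all pairs is given here, edgeR gave 13 of the 68 pairs. Of these, 6 were in the caudate putamen, where 7 genes were tested. There the fitted log2 difference, male minus female, was 1.73 for Omp (adjusted p = 0.141), 1.54 for S100a5 (0.261), 0.71 for Doc2g (0.196), 1.09 for Sp8 (0.381), 0.44 for Nmb (0.397) and -0.31 for Cdhr1 (0.364), so that 5 of the 6 have the sign opposite to that in motor cortex. Whether the difference between the sexes differs between these regions was not tested.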

How the data were processed

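The authors deposited whole-number read counts per gene for 847 libraries. The submitters' processing notes name Trim Galore 0.3.7, STAR 2.5.3a, DESeq2 and GRCm38; the annotation and the counting program are not given in the sources used here. Groups came from the labels. The 8 genes, the marker lists and the tests were chosen with earlier results of these data known; named genes were the 8, up to 4 called genes per list with the largest slopes, the 3 genes most like each member (for Ms4a15 not reported here) and the 5 of highest bulb excess. From the counts, edgeR 4.0.16 (R 4.3.3) fitted TMM-scaled counts after its filter on low counts, 1 fit per region, and was tested on simulated data. CPM used library totals, and correlations log2 CPM with a prior count of 2. Depth limits low values: in a library of 481444 counts a gene at 1 CPM has an expected count of less than 1 read. Alternatives were DESeq2 1.42.0, other scaling (RLE), no filter, depth covariates, males alone, mice 16 to 56 alone, libraries left out and a replicate block. Region libraries of 1 mouse number come from the same mouse. As a check of the pairing, deviations of the same mouse in bulb and motor cortex correlated at a median r of 0.0577 (-0.0890 to 0.290, 58 mice, 20 over 0.1), and in bulb and subventricular zone at 0.0254 (54 mice, 7 over 0.1). Settings without mouse 49, 8, 32, 47 or 58, those on nasal epithelium genes and the sex comparisons outside the bulb were added after seeing the data.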

Additional observations from a re-analysis of the deposited data

Results flagged for a closer look

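A library was picked out where the highest or lowest of 4 to 10 libraries of an age lay far from the next. Of 48 such groups in the bulb 5 were picked out, and chance alone gives about 1 in 20, or 2.4. Omp was at 799.2 CPM in mouse 49 (female, 3 months; next 264.6), at 338.5 CPM in mouse 1 (female, 12 months; next 231.0) and at 256.7 CPM in mouse 20 (male, 21 months; next 185.5). S100a5 was at 478.2 CPM in mouse 49 (next 276.4), and Shisa8 at 201.7 CPM in mouse 54 (female, 15 months; next 169.5). The age slope of S100a5 differed between bulb and subventricular zone by -0.269 log2 units per month, but by -0.0028 without the subventricular zone library of mouse 8. S100a5 had reads in 4 of the 55 libraries of that region.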

How the results depend on the processing

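Outside single left-out libraries, 161 values of single genes kept their direction and side of the threshold, 32 lost a call, 4 gained one and 2 reversed, both in males alone: the bulb slopes of Omp (0.000214) and Nmb (-0.00267). Leaving out 1 library at a time, the genes called ranged from 3 to 4 for age in bulb, 0 to 1 for sex in bulb and 0 to 1 for age in motor cortex. In males alone the count was 1 for age in bulb, 3 for later ages, 1 of the pairs in 14 regions and 2 for bulb against subventricular zone. In mice 16 to 56 alone it was 0 for sex in bulb, 6 for sex in motor cortex, 2 of the pairs in 14 regions, 0 of the sex pairs in 13 regions and 0 for bulb against subventricular zone, as it was without mouse 8 (0). Depth covariates gave 0 for sex in bulb and 5 in motor cortex, and 12-month mice gave 0. With the replicate block of mice, bulb against motor cortex gave 1 gene, and over all genes bulb against subventricular zone gave 340 calls instead of 561; it changed no other call of the 8. Traces reached 6 genes in 56 libraries at 0.5% of the bulb level and in 1 at 2%, and all 8 genes in 7 at 1%. Over all genes the calls for age in bulb were 1349 in males alone (2235 in all), for sex in bulb 380 without the filter, 92 in mice 16 to 56 and 42 with depth covariates (225; 137 to 339 with 1 library left out), for age by sex 2 in mice 16 to 56, 65 without the filter, 67 by DESeq2 and 0 without mouse 49, with 790 at an unadjusted p under 0.05 (39, with 1173 at an unadjusted p under 0.05), for age in motor cortex 1539 in males (2342), for bulb against motor cortex 236 in males (986), for bulb against subventricular zone 228 in mice 16 to 56 (561) and for sex in motor cortex 8 at 12 months (491). The causes were not tested, except that subsets hold fewer libraries.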
